A study of Mus musculus with 6 samples.

Results

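DEAD-box and DEAH-box proteins are a family of enzymes, named after the letters of a conserved motif, that use ATP to unwind or remodel RNA. The genes described here are those whose symbol in the deposited count table starts with Ddx or Dhx followed by a digit, which are 54 of 23337 genes. Of these, 51 had at least 10 reads in at least 3 of the 6 libraries, and all 51 in fact had at least 10 reads in every library, with a lowest count of 40. The 3 left out were Ddx4, Ddx25 and Ddx43, all known from the germ line. Just outside the limit, Ddx4 had 6, 7 and 6 reads under control and 10, 5 and 0 reads under stretch. Just inside it, Ddx60 had 147, 120 and 100 reads under control and 65, 78 and 40 reads under stretch. Values per library are given throughout in the order of the replicate numbers, which are 2, 3 and 4 for control and 1, 2 and 4 for stretch.

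The cells were primary sinusoidal endothelial cells of mouse liver, isolated with immunomagnetic beads, cultured with serum, plated on collagen IV and then starved of serum. The control group (replicates 2, 3 and 4) was left unstretched, and the stretch group (replicates 1, 2 and 4) was subjected to cyclic stretch of 4% at 1 Hz in a Flexcell system, whose elastic wells are pulled under the cells. The labels give no strain, genotype, age or duration of stretch, and do not say whether replicates came from separate animals, so p-values measure the spread between these libraries, which may be technical.

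As background, RNA helicases work at nearly every step in the life of a transcript. Nucleolar members such as Ddx21 help assemble ribosomes, spliceosomal members such as Dhx15 and Ddx23 drive changes of shape during splicing, and others export, translate or store messenger RNA. A further branch, the RIG-I-like receptors Ddx58 and Dhx58, uses the helicase fold to detect viral RNA in the cytoplasm and is itself induced by interferon.

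Control libraries held 48948948 to 57923937 gene counts, and stretch libraries 58503669 to 68489956. The defining sinusoidal endothelial markers were present in every library, among them Stab2 at 1362 CPM or more and Lyve1 at 839 CPM or more (CPM: counts scaled to a common library size with TMM factors). Markers of other cells moved with the groups: 12 of 15 hepatocyte markers were called higher, with a summed level of 101 to 148 CPM under control and 213 to 1012 CPM under stretch, the highest being stretch replicate 1. For macrophages 9 of 10 tested markers were called higher (summed 78.9 to 93.8 CPM against 112 to 149.8 CPM). Among them Marco rose 9.54-fold, from 0.256 ± 0.094 CPM (control) to 2.45 ± 1.68 CPM (stretch). Vsig4 rose 6.54-fold, from 0.124 ± 0.052 CPM to 0.820 ± 0.598 CPM. Both were scarce. Cd68, the macrophage marker with the highest level, did not pass, with overlapping groups of 66.9 ± 4.36 CPM (control) and 81.9 ± 12.6 CPM (stretch), a 1.22-fold difference. The Kupffer cell markers Clec4f and Timd4 were too scarce to be tested and stayed at or below 0.39 CPM. Of 15 sinusoidal endothelial markers 11 were called lower, with a sum of 13708 to 15144 CPM under control and 11484 to 13034 CPM under stretch. Of 10 tested hepatic stellate cell markers 1 was called, higher, and Lrat stayed at or below 0.04 CPM, while Cd3d, Ms4a1 and Nkg7, markers of lymphocytes, had no reads. The part of these cells in the helicase results was not tested, and in bulk RNA fewer cells of a type and less RNA per cell cannot be told apart.

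The 51 genes differed widely in level. Per kilobase of coding length, the transcriptional coregulator Ddx5 had the highest level, 273 ± 8.73 RPKM in control libraries (mean ± SD, n = 3 per group throughout), followed by the translation factor Ddx3x with 104 ± 0.379 RPKM. Ddx39b, an adaptor of splicing and export, and Ddx6, a repressor in P-bodies, followed with 61.9 ± 2.60 and 60.2 ± 2.57 RPKM and did not differ from each other beyond their spread. Dhx15, Ddx1, Ddx21 and Dhx9 came next with 53.8 ± 0.351, 53.1 ± 2.05, 49.7 ± 2.33 and 48.6 ± 1.22 RPKM. The median member had 17.6 RPKM, and the lowest levels were those of Dhx58, Ddx11 and Ddx60 (2.36 ± 0.0391, 0.897 ± 0.120 and 0.357 ± 0.0479 RPKM). The 3 most abundant genes made up 30.9% of the summed RPKM of the 51. The kept genes together held between 0.558% and 0.612% of all gene counts in a library.

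**Figure D1:**
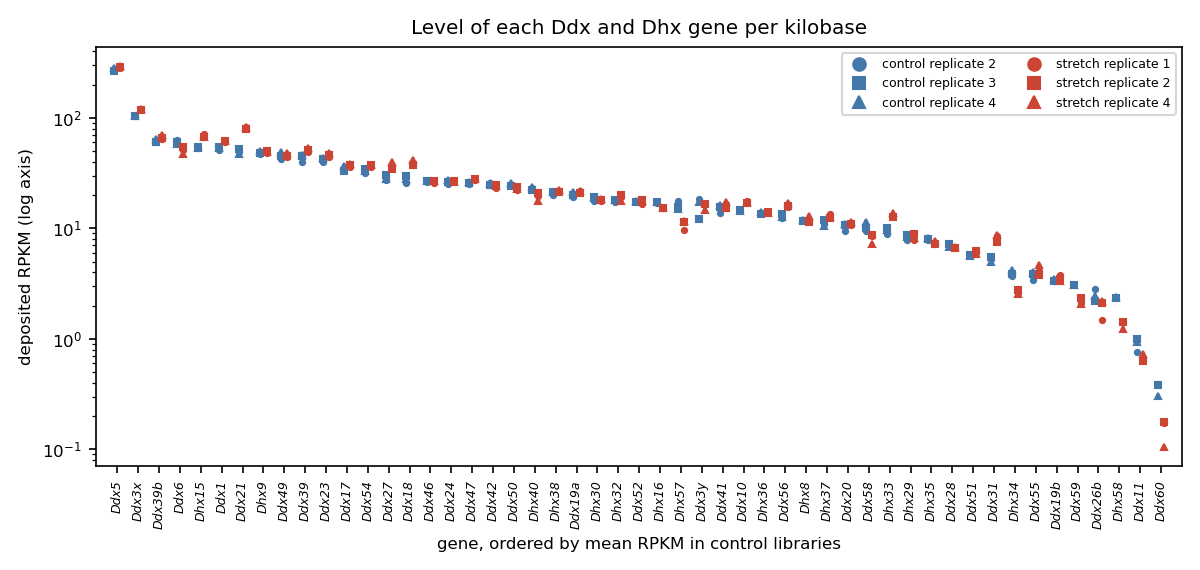
Deposited RPKM (log axis) of each of the 51 Ddx and Dhx genes, ordered by the control mean, with 1 point per library (blue control, red stretch; the shape of a point gives the replicate). Ddx5 stands highest and Ddx60 lowest, and within most genes the 6 libraries lie close together compared with the distance between genes.

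The comparison asked which of these transcripts differ between stretched and unstretched cells. More helicase transcripts rose than fell: of the 51, 23 were called higher, 6 lower, and 22 did not pass (edgeR quasi-likelihood test, Benjamini-Hochberg adjusted p under 0.05 over all 14222 genes tested). Over all genes tested 44.0% were called, 21.4% higher and 22.6% lower, so the share called among the helicases (56.9%) was above the background and tilted upward (45.1% higher, 11.8% lower). The background genes were not matched to the members in level, and the part of level in these shares was not tested. The median log2 fold change of the 51 was 0.14, against -0.01 over all genes tested. Changes were small: the median size of a called log2 fold change was 0.30, and 2 called members in each direction reached 1.5-fold, Ddx21 and Ddx31 upward and Dhx58 and Ddx60 downward (background 6.16% higher and 7.38% lower at that size). The 2 groups had separate CPM ranges for 38 of 51 members, against 55.9% of all genes tested, and in 29 of the 38 the stretch libraries were the higher ones. Over all genes tested, the stretch libraries were the higher ones in 3794 of 7945 genes with separate ranges.

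The scaling moved the split of calls, both for the members and for all genes. With library sizes alone, 13 members were called higher and 9 lower, so that 59.1% of the calls were higher against 79.3% with TMM scaling. Over all genes tested that share was 32.7% with library sizes alone and 48.6% with TMM scaling. The median log2 fold change with library sizes alone was -0.11 over all genes and 0.04 over the members. Without stretch replicate 1, the library with the most hepatocyte RNA, 17 members were called higher and 6 lower, and each of these was also called with all libraries. Summed over the 51 genes the level was 5493, 5399.9 and 5451 CPM under control and 6253, 6102 and 6363 CPM under stretch. The groups did not overlap, and their ratio was 1.15 (two-sided exact permutation test, p = 0.1, which is the lower limit for groups of 3). By name, 18 of 35 Ddx genes were called higher and 3 lower, and 5 of 16 Dhx genes were called higher and 3 lower.

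**Figure D2:**
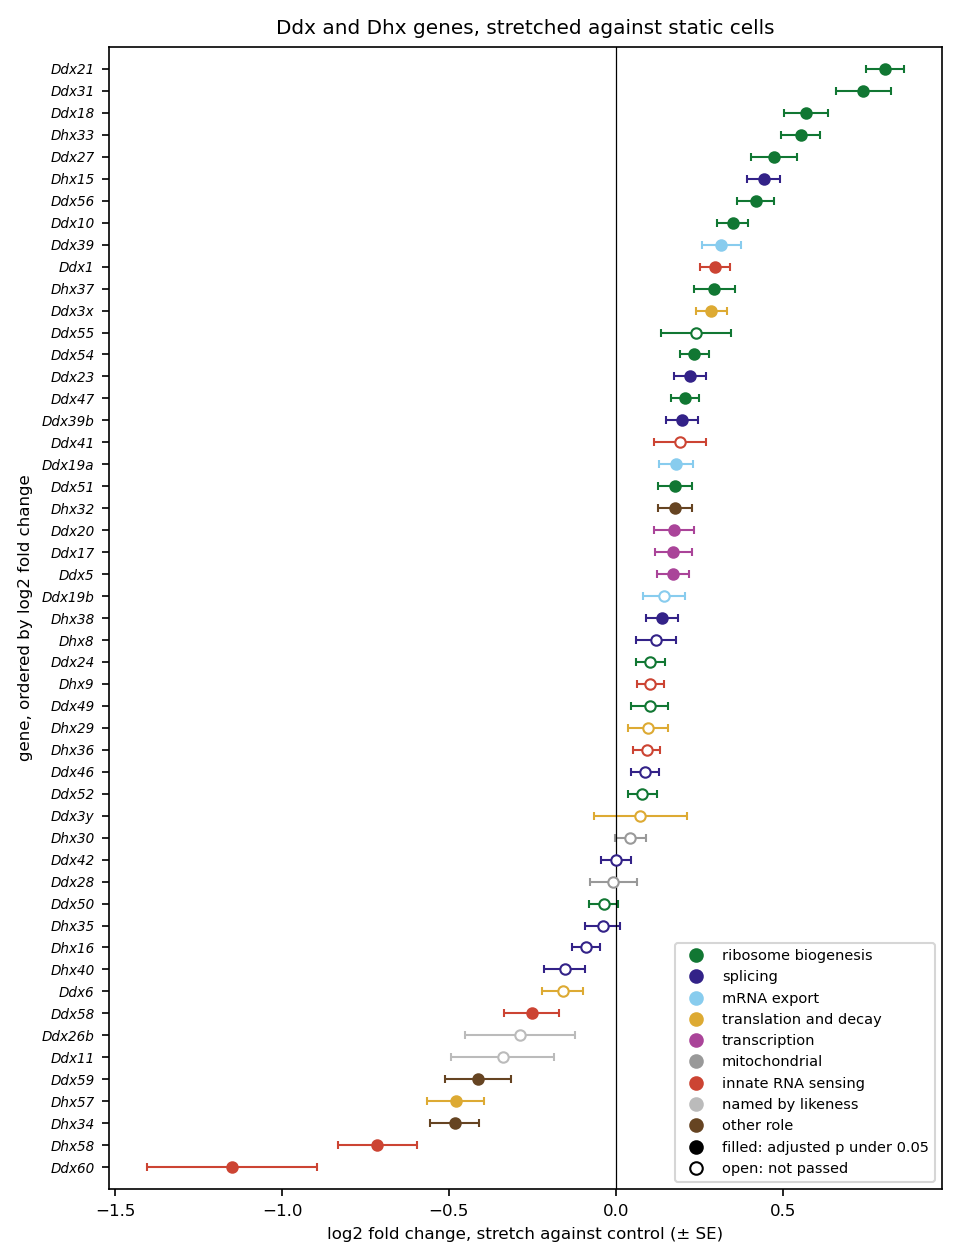
Log2 fold change (x axis, ± SE) of stretch against control for the 51 genes (y axis), coloured by role, with 1 colour for a gene of several roles. Filled circles passed an adjusted p of 0.05. Ribosome biogenesis helicases hold the 5 highest places, and Ddx60 and Dhx58 the lowest.

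Ribosome biogenesis helicases, which unwind pre-ribosomal RNA in the nucleolus, held the 5 largest log2 fold changes of the family. Of 16 members 11 were called higher (68.8%, against 21.4% of all genes), 0 lower, and 5 did not pass, with a median log2 fold change of 0.27. The list was chosen with earlier results of these data known. Ddx21, which acts in transcription and processing of ribosomal RNA (chromosome 10, 62580247 to 62602298), was measured at 249.6, 259 and 234 CPM under control and 444, 409 and 445 CPM under stretch. Every stretch library lay far above every control library, and the 1.75-fold rise was a log2 fold change of 0.81 ± 0.06 (SE; adjusted p = 5.83e-05), the clearest call of the family. Ddx31 (chromosome 2, 28840406 to 28905575), a nucleolar helicase of large subunit assembly, had 18.9, 19.3 and 16.9 CPM under control and 32.0, 27.6 and 32.5 CPM under stretch. It rose 1.67-fold without overlap of the groups (log2 fold change 0.74 ± 0.08, adjusted p = 0.000244).

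Dhx33 (chromosome 11, 70984091 to 71004432), which takes part in ribosomal RNA synthesis and has also been described as a sensor of double-stranded RNA, had 49.6, 54.4 and 51.3 CPM under control and 75.2, 72.1 and 80.7 CPM under stretch. Its groups were separate too, with a log2 fold change of 0.55 ± 0.06 (adjusted p = 0.000189). Ddx18, a helicase of ribosome assembly, had 61.4, 69.8 and 65.0 CPM under control and 94.7, 92.1 and 105 CPM under stretch and rose 1.48-fold. The large subunit factor Ddx27 had 75.2, 81.7 and 75.7 CPM under control and 108, 98.2 and 117 CPM under stretch and rose 1.39-fold. In both, every stretch library was above every control library. Smaller rises were called for Ddx56 (1.34-fold), Ddx10 (1.27-fold), Dhx37 (1.23-fold), Ddx54 (1.18-fold), Ddx47 (1.15-fold) and Ddx51 (1.13-fold). The call of Ddx51 was lost when single libraries were left out (adjusted p = 0.0509 without control library 3, 0.0798 without control library 4 and 0.0519 without stretch library 1). Ddx55, Ddx24, Ddx49, Ddx52 and Ddx50 did not pass, with log2 fold changes of 0.24, 0.10, 0.10, 0.08 and -0.04, and Ddx55 passed without stretch replicate 2 (adjusted p = 0.0256). The sign of Ddx52 turned with library sizes alone as scaling. Summed over the 16 genes the level went from 1140.5 ± 26.4 CPM (control) to 1517 ± 57.2 CPM (stretch), a ratio of 1.33. With library sizes alone 9 of the 16 were called higher and 0 lower, and with any 1 library left out between 10 and 12, the count without stretch replicate 1 being 10.

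**Figure D3:**
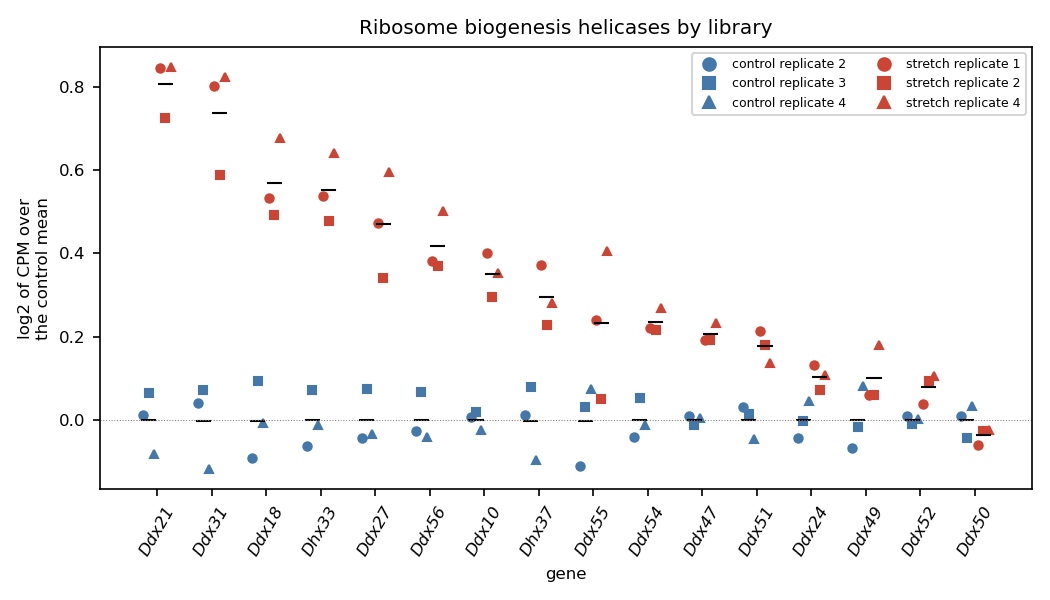
Log2 of CPM over the control mean (y axis) for the 16 ribosome biogenesis helicases (x axis), with 1 point per library and a bar at each group's mean. From Ddx21 to Dhx37 all 3 stretch libraries lie above all 3 control libraries, whereas for Ddx50 the groups overlap at a log2 fold change of -0.04.

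Among related pairs the closest contrast was that of Ddx21 and its paralog Ddx50. The genes lie side by side on the same strand of chromosome 10, 13724 bases apart. Ddx50 (chromosome 10, 62616023 to 62651198) had 66.1, 63.6 and 67.1 CPM under control and 63.0, 64.4 and 64.6 CPM under stretch, overlapping groups, while Ddx21 was high in each stretch library. Counts of Ddx21 per count of Ddx50, a ratio that no library scaling affects, were 3.78, 4.07 and 3.48 under control and 7.06, 6.35 and 6.90 under stretch. The log2 ratio differed by 0.84 between groups (exact two-sided permutation p = 0.1, Benjamini-Hochberg adjusted p = 0.25 over the 5 pairs compared). No pair could reach a raw p below 0.1 with 3 libraries a group.

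Ddx58 and Dhx58 were the other pair whose ratio did not overlap between groups: 8.13, 8.89 and 9.94 in control and 12.3, 12.6 and 12.2 in stretch libraries, a log2 difference of 0.46 (exact permutation p = 0.1, adjusted p = 0.25). Ddx5 and Ddx17, close paralogs in transcription and splicing, had nearly equal ratios, 3.88 ± 0.11 in control and 3.87 ± 0.05 in stretch libraries (log2 difference -0.0017, exact permutation p = 1). For Ddx19a and Ddx19b the ratios were 2.28 ± 0.07 and 2.34 ± 0.15 (log2 difference 0.04, exact permutation p = 0.6), and the sign of both of these differences turned when single libraries were left out. For Ddx3x and Ddx3y the ratios were 6.62 ± 1.56 and 7.44 ± 0.66 (log2 difference 0.19, exact permutation p = 0.4). Without control replicate 3 that difference was 0.38. Paralogs share stretches of sequence, and no source used here says how reads that match both were counted, so their separate levels are uncertain.

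**Figure D4:**
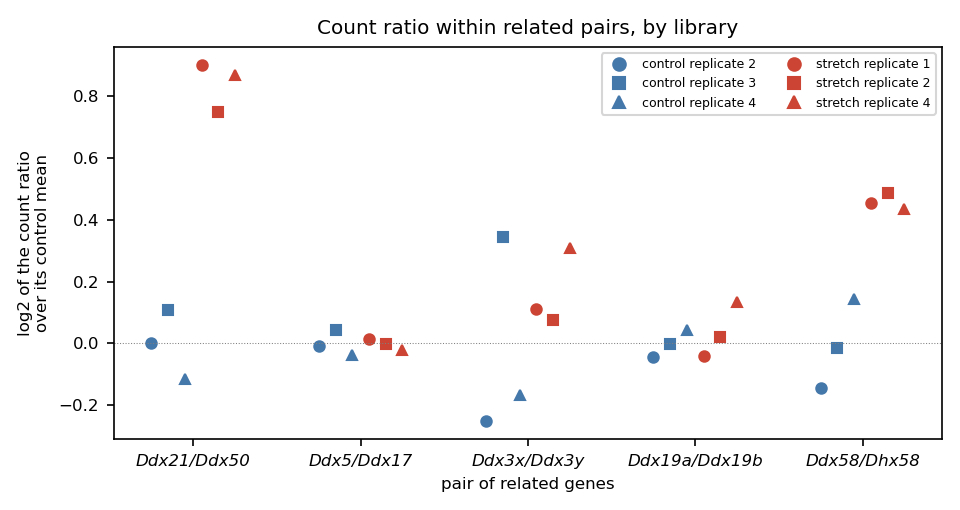
Log2 of the count ratio of 2 related genes over its control mean (y axis) in each library for 5 pairs (x axis). Stretch libraries lie above all control libraries for Ddx21/Ddx50 and Ddx58/Dhx58, and the groups overlap for the other 3 pairs.

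Of 11 splicing helicases 4 were called higher, 0 lower, and 7 did not pass, with a median log2 fold change of 0.12. The share called was 36.4%, below the 44.0% of all genes tested. Dhx15 (chromosome 5, 52150209 to 52190519), which takes spent spliceosomes apart and also acts in ribosome assembly, had 213, 211 and 207 CPM under control and 301, 272 and 284 CPM under stretch. The stretch libraries were all higher, by 1.36-fold on average (log2 fold change 0.44 ± 0.05, adjusted p = 0.000244). Ddx23, a helicase of the U5 particle that acts when the spliceosome is activated (chromosome 15, 98645507 to 98662889), had 120.0, 126 and 126 CPM under control and 141, 141 and 152 CPM under stretch, without overlap. It rose 1.17-fold (log2 fold change 0.22 ± 0.05, adjusted p = 0.00627). Ddx39b, which joins splicing to export (chromosome 17, 35241746 to 35253707), had 114, 111 and 118 CPM under control and 129, 127 and 137 CPM under stretch. Its groups were separate, with a rise of 1.15-fold (log2 fold change 0.20 ± 0.05, adjusted p = 0.0112).

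Dhx38, which acts between the catalytic steps of splicing, was barely past the threshold (log2 fold change 0.14 ± 0.05, adjusted p = 0.0498) and lost its call in 10 of 13 alternatives, with an adjusted p of 0.161 without control library 2, 0.0859 without control library 3, 0.0869 without control library 4, 0.0942 without stretch library 1 and 0.160 without stretch library 4. Ddx41, Dhx8, Ddx46 and Ddx42 did not pass, with log2 fold changes of 0.19, 0.12, 0.09 and 0.00, nor did Dhx35, Dhx16 and Dhx40, with -0.04, -0.09 and -0.15. Without stretch replicate 2 Ddx41, Dhx8 and Dhx40 passed (adjusted p = 0.0226, 0.0477 and 0.0433), the last as lower. With library sizes alone as scaling, 1 splicing helicase was called higher and 2 lower, the calls of Ddx23 and Ddx39b were lost (adjusted p = 0.0686 and 0.121), and Ddx42 and Ddx46 turned sign.

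Of 4 helicases of messenger RNA export 3 were called higher (75.0%, against 21.4% of all genes tested), and Ddx19b did not pass (log2 fold change 0.14 ± 0.06). Ddx39, a paralog of Ddx39b in nuclear export (chromosome 8, 83715177 to 83723351), had 71.1, 77.8 and 79.7 CPM under control and 91.9, 93.1 and 99.7 CPM under stretch. It rose 1.25-fold (log2 fold change 0.32 ± 0.06, adjusted p = 0.00266), with no overlap of the groups. Ddx19a, which releases exported transcripts at the nuclear pore (chromosome 8, 110974991 to 110997823), had 53.2, 53.9 and 56.7 CPM under control and 63.3, 58.7 and 63.7 CPM under stretch, a rise of 1.13-fold (adjusted p = 0.0215). Its call was lost when single libraries were left out (adjusted p = 0.0809 without control library 2, 0.0640 without control library 3, 0.0629 without stretch library 1 and 0.0729 without stretch library 4). With library sizes alone 1 of the 4 was called.

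The 5 coregulators of transcription had log2 fold changes between 0.10 and 0.24, and 4 were called higher, or 1 with library sizes alone. The share called higher was 80.0%, against 21.4% of all genes tested. Without control replicate 2 or stretch replicate 1 the count was 2, and without control replicate 3 or stretch replicate 4 it was 1. Ddx54, a nucleolar protein that also binds nuclear receptors (chromosome 5, 120613130 to 120628592), had 133, 142 and 136 CPM under control and 159, 159 and 165 CPM under stretch and rose 1.18-fold (log2 fold change 0.24 ± 0.04, adjusted p = 0.00310). Ddx5 (chromosome 11, 106780356 to 106788494) had 1027, 971 and 1026 CPM under control and 1128, 1108 and 1170.1 CPM under stretch. These groups did not overlap, and the log2 fold change was 0.17 ± 0.05 (adjusted p = 0.0204), with an adjusted p of 0.0787 without control library 3 and 0.0676 without stretch library 4. Its partner Ddx17 (chromosome 15, 79527696 to 79546741) had 266, 243 and 271 CPM under control and 288, 286 and 306 CPM under stretch and a log2 fold change of 0.17 ± 0.06 (adjusted p = 0.0345). That call was lost in 4 of the 6 fits that leave out a library (adjusted p = 0.0675 without control library 2, 0.112 without control library 3, 0.0525 without stretch library 1 and 0.117 without stretch library 4).

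Ddx20, a component of the SMN complex, had an adjusted p of 0.0470 and lost its call in 5 of these fits (adjusted p = 0.160 without control library 2, 0.0690 without control library 3, 0.0664 without control library 4, 0.0754 without stretch library 1 and 0.142 without stretch library 4). Dhx9, a helicase of double-stranded RNA and of transcription complexes (chromosome 1, 153455758 to 153487660), had 234, 232 and 238 CPM under control and 252, 250.0 and 255 CPM under stretch. Its stretch libraries were all above its control libraries, yet the log2 fold change of 0.10 ± 0.04 did not pass (adjusted p = 0.0661). It passed with RLE factors and with DESeq2 (adjusted p = 0.0424 and 0.0262).

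Among 7 helicases of translation, messenger RNA storage and decay, 2 were called higher, 1 lower, and 4 did not pass. The share called, 42.9%, was near the 44.0% of all genes tested. Ddx3x, which helps ribosomes scan structured leaders (chromosome X, 13281022 to 13293983), had 507, 499 and 492 CPM under control and 617, 588 and 622 CPM under stretch. It rose 1.22-fold with no overlap (log2 fold change 0.29 ± 0.05, adjusted p = 0.00132). Ddx1, which takes part in RNA transport and ligation of transfer RNA (chromosome 12, 13219307 to 13249174), had 135, 142 and 136 CPM under control and 169, 165 and 173 CPM under stretch, a rise of 1.23-fold (log2 fold change 0.30 ± 0.04, adjusted p = 0.000940). Both calls held under every alternative run. The member called lower was Dhx57 (chromosome 17, 80238304 to 80290476), a large DEAH-box protein whose role is less settled, with 95.0, 83.6 and 79.1 CPM under control and 55.2, 63.4 and 66.1 CPM under stretch. Its control libraries were all higher, and it fell 1.39-fold (log2 fold change -0.48 ± 0.09, adjusted p = 0.00249).

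Ddx6, which represses translation and promotes decay in P-bodies (chromosome 9, 44604892 to 44640731), had 407, 381 and 362 CPM under control and 349, 359.8 and 320.2 CPM under stretch. All 3 control libraries were above all 3 stretch libraries, but the log2 fold change of -0.16 ± 0.06 did not pass (adjusted p = 0.0684). It passed as lower with library sizes alone (adjusted p = 0.0113) and with the replicate number as a block (adjusted p = 0.0481). Ddx3y, the Y-linked counterpart of Ddx3x (chromosome Y, 1260715 to 1286613), had 91.2, 59.4 and 83.5 CPM under control and 86.3, 84.2 and 75.9 CPM under stretch. Control replicate 3 was the lowest of all 6, the groups overlapped, and the log2 fold change of 0.07 ± 0.14 had an adjusted p of 0.700. Without that library the sign turned (log2 fold change -0.09). Dhx29 and Dhx36, which act on structured messenger RNA, had log2 fold changes of 0.10 and 0.09 and did not pass.

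Of the 8 members listed here under antiviral sensing, 2 were called higher (Dhx33 and Ddx1, above), 3 lower (Dhx58, Ddx60 and Ddx58), and 3 did not pass. The share called lower was 37.5%, against 22.6% of all genes tested, and the share called higher was 25.0%, against 21.4%. The list was chosen with earlier results of these data known and is not exhaustive. These shares depend on which members it holds. Dhx58, which encodes LGP2, a regulator of RIG-I-like receptors (chromosome 11, 100694884 to 100704271), had 6.18, 5.85 and 5.92 CPM under control and 3.87, 3.74 and 3.33 CPM under stretch. Each stretch library was lower than each control library, and the gene fell 1.64-fold (log2 fold change -0.71 ± 0.12, adjusted p = 0.00175). Ddx60, an interferon-induced helicase that promotes RIG-I signalling (chromosome 8, 61928089 to 62037695), was scarce, with 2.49, 2.37 and 1.87 CPM under control and 1.17, 1.15 and 0.711 CPM under stretch. Stretch replicate 4 was the lowest, and the fall of 2.22-fold was the steepest of the family (log2 fold change -1.15 ± 0.26, adjusted p = 0.00697).

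Ddx58, which encodes RIG-I itself (chromosome 4, 40203777 to 40239825), had 50.3, 52.0 and 58.9 CPM under control and 47.7, 47.2 and 40.4 CPM under stretch. The groups were separate but close, with a log2 fold change of -0.25 ± 0.08 (adjusted p = 0.0359), and the call was lost when single libraries were left out (adjusted p = 0.0588 without control library 3, 0.122 without control library 4, 0.0506 without stretch library 2 and 0.109 without stretch library 4). Lower levels of part of the interferon-induced genes had been seen in these data before, so the fall of these 3 genes is not independent evidence of that pattern. Dhx9, Ddx41 and Dhx36 were the 3 that did not pass.

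**Figure D5:**
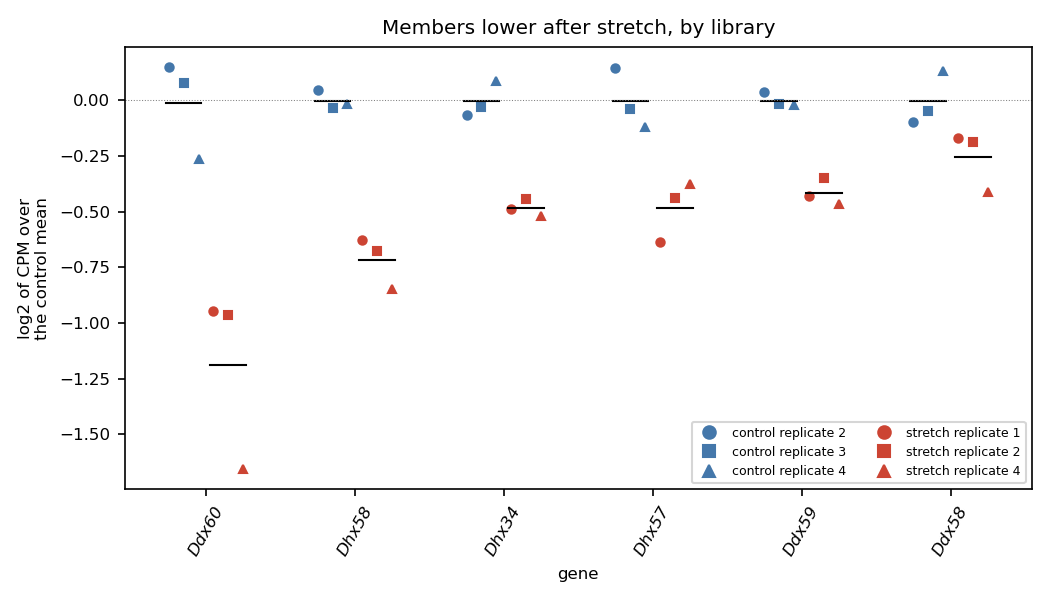
Log2 of CPM over the control mean (y axis) for the 6 genes called lower (x axis), with 1 point per library and a bar at each group's mean. In all 6 the stretch libraries lie below the control libraries. Ddx60 has the widest gap and Ddx58 the narrowest.

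The remaining members gave 1 further gene called higher and 2 further genes called lower. Dhx34, which takes part in nonsense-mediated decay (chromosome 7, 16197221 to 16222032), had 14.9, 15.3 and 16.6 CPM under control and 11.2, 11.5 and 10.9 CPM under stretch and fell 1.40-fold (log2 fold change -0.48 ± 0.07, adjusted p = 0.00107). Ddx59, a helicase linked to ciliary signalling, had 7.38, 7.12 and 7.10 CPM under control and 5.34, 5.66 and 5.21 CPM under stretch and fell 1.33-fold (log2 fold change -0.41 ± 0.10, adjusted p = 0.00990). For Dhx32 the log2 fold change was 0.18 ± 0.05 (adjusted p = 0.0227), and the call was lost in 5 of the 6 fits that leave out a library (adjusted p = 0.0730 without control library 2, 0.0538 without control library 3, 0.0626 without control library 4, 0.0530 without stretch library 1 and 0.0539 without stretch library 2). The mitochondrial helicases Dhx30 and Ddx28, which act on mitochondrial ribosomes, had log2 fold changes of 0.04 ± 0.05 and -0.01 ± 0.07 and did not pass. Their signs turned under other scalings. Ddx11, a DNA helicase of chromosome cohesion, and Ddx26b, which resembles a subunit of the Integrator complex, had -0.34 ± 0.15 and -0.29 ± 0.16 and did not pass either.

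Promoter sequence was available for 44 of the 51 genes (55 windows from 250 bases before to 50 after a RefSeq start, GRCm38.p6). The E-box CACGTG, a binding sequence of MYC and related factors whose palindrome reads the same on both strands, occurred in 5 of the 55 windows (9.09%) and in 7.15% of all 32851 windows of that length. Among the windows of ribosome biogenesis helicases it occurred in 1 of 18 (5.56%), that of Dhx33. An interferon-type repeat, GAAA followed after any 2 bases by GAAA, searched on both strands, occurred in 4 of 55 windows (7.27%) against 3.44% of all windows, and 2 of the 4 were overlapping windows of Ddx49 that share 1 match. Of 6 windows of genes called lower 2 held it, those of Ddx60 and Ddx58, and of 25 windows of genes called higher 0 held it. Dhx58 had no window in the table. The stretches below show the E-box of the 2 called genes that hold it and the upstream repeat of Ddx60, in capitals, read 5′ to 3′ on the strand of the gene.
Dhx33 (chr11:71004442-71004487, minus strand): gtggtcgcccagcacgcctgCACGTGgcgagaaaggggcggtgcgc
Ddx5 (chr11:106788912-106788957, minus strand): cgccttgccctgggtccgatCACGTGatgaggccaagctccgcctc
Ddx60 (chr8:61928014-61928063, plus strand): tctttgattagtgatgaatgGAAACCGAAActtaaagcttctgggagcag
In Ddx60 the same 10 letters occur again closer to the start, at position -19 after -53. These matches are descriptions of letters and show no binding.

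Helicases outside the naming rule and partners of the family were read from lists chosen with earlier results known. Of 19 tested RNA helicases not named Ddx or Dhx, 8 were called higher and 4 lower (63.2% called, against 44.0% of all genes tested). Eif4a1, the DEAD-box helicase of translation initiation, had 987, 1064 and 984 CPM under control and 1613, 1492 and 1677 CPM under stretch and rose 1.58-fold (log2 fold change 0.66 ± 0.06, adjusted p = 0.000115). Eif4a3, its relative in the exon junction complex, rose 1.18-fold (adjusted p = 0.00343), while the interferon-linked helicase Znfx1 fell 1.29-fold (adjusted p = 0.000438). Ifih1, which encodes the RIG-I-like receptor MDA5, had 21.9, 21.2 and 20.3 CPM under control and 20.2, 19.1 and 17.2 CPM under stretch and a log2 fold change of -0.17 ± 0.07 that did not pass (adjusted p = 0.0972), although it passed as lower with library sizes alone (adjusted p = 0.0199).

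Of 16 tested genes of RIG-I-like receptor signalling, 3 were called higher and 4 lower. The shares, 18.8% and 25.0%, were near those of all genes tested (21.4% and 22.6%), and the median log2 fold change was 0.08, with 11 of 16 values positive. The 3 called higher, named after their values were seen, were the kinase Tbk1 (1.10-fold), its binding partner Tank (1.33-fold) and the adaptor Traf3 (1.22-fold). Mavs (log2 fold change -0.267, adjusted p = 0.00380) was called lower, as was Rnf135, which fell 1.41-fold (adjusted p = 0.00597). Both were likewise named after their values were seen. Trim25, a ubiquitin ligase that activates RIG-I, fell 1.45-fold, from 190.5 ± 8.29 CPM (control) to 131 ± 3.70 CPM (stretch) (log2 fold change -0.54 ± 0.05, adjusted p = 0.000110), and Nlrx1, a mitochondrial modulator of this pathway, fell 2.05-fold (adjusted p = 0.000126). The list of G-patch proteins, a class with activators of DEAH-box helicases, went both ways, with 3 of 16 called higher and 6 lower (56.3% called). That list also holds the Cwf19-like genes Cwf19l1, which did not pass, and Cwf19l2, called lower, which are not G-patch proteins. Gpatch4, a nucleolar member, rose 1.51-fold (adjusted p = 0.000597), and the splicing regulator Rbm10 fell 1.22-fold (adjusted p = 0.00207). Of 13 export partners 5 were called higher and 0 lower (38.5% called), led by the THO complex subunit Thoc1 (1.30-fold, adjusted p = 0.000349) and the adaptor Alyref (1.33-fold, adjusted p = 0.00155). Of 12 genes listed as partners of Ddx6 in decay and storage 5 were called higher and 3 lower (66.7% called). Those called higher include 4930402H24Rik, an entry with no established link to Ddx6. Patl1, a decapping activator, rose 1.23-fold (adjusted p = 0.000627), and the decapping cofactor Dcp1b fell 1.59-fold (adjusted p = 0.00287).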

How the data were processed

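RNA of 3 control and 3 stretch libraries was sequenced with a TruSeq kit, per the labels' protocols. The authors deposited a table of raw counts, 1 value per gene and library. Tools named in the submitters' processing notes are featureCounts, edgeR and TopHat2 2.1.0, with the build GRCm38 (mm10). No source used here gives the strand setting, so reads of overlapping genes or antisense partners may be mixed. RPKM values in the deposited table divide counts by depth and coding length, without TMM scaling, and served for levels between genes. The authors' deposited table also holds log2 fold changes, a score (likelihood ratio) and a p-value with its FDR. Of the 51 members, the authors' deposited table gives an FDR under 0.05 to 20 as higher and 6 as lower. Of all 23336 genes in that table, 2864 are higher and 2848 lower at that FDR.

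The test was edgeR 4.0.16 (R 4.3.3) on the counts (TMM factors, filterByExpr, quasi-likelihood F test, Benjamini-Hochberg adjustment over 14222 genes, called under 0.05). Each SE is the size of the log2 fold change over the square root of its F. Summed levels and count ratios were compared by exact permutation over libraries. Alternatives were RLE factors, library sizes alone, no filter, 10 reads in 3 libraries, DESeq2 1.42.0, limma-voom (limma 3.58.1), a block for the replicate number, and omission of each library in turn. The steps were tested on simulated data in which only a small part of the genes was changed. That part was far below the share called here, so the simulation cannot judge the effect of the scaling. The smallest fold simulated was also larger than the fold of most called members.

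The members, role lists and partner lists were chosen with earlier results of these data known. Full values go to the called members with the smallest p (up to 3 in each role), called members with a fold of at least 1.5, and Ddx3x, Ddx3y, Ddx5, Ddx6, Ddx21, Ddx58, Dhx9, Dhx15 and Dhx58. Of each partner list up to 2 called genes are named, and Eif4a1, Eif4a3 and Ifih1 whatever their result. Further genes of these lists are named where the text says why. A planned search for protein motifs was not made, since protein sequences were not used here.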

Additional observations from a re-analysis of the deposited data

How the results depend on the processing

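Of the 23 members called higher 13 kept the call under all 13 alternatives, and of the 6 called lower 5 did, the exception being Ddx58. With library sizes alone 13 were called higher. Leaving out 1 library gave 16 to 25 called higher and 5 to 6 lower, and 21 of the 29 calls held without every library in turn. The ratio of summed levels was 1.13 to 1.16 with a library left out, 1.16 with RLE factors and 1.07 with library sizes alone.

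The control and stretch groups share the numbers 2 and 4, which no label ties to a shared isolation. Deviations of same-numbered libraries from their group means correlated across genes by 0.21 and 0.11, and those of other pairs by -0.21 to 0.19. With the replicate block 18 members were called higher and 8 lower, 17 and 6 of them shared with the unblocked fit. Over all 14222 genes tested that fit called 2713 higher and 2855 lower. Control replicate 3 and stretch replicate 1 each stand alone in a block, so its comparison of the groups rests on the libraries numbered 2 and 4.

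The reversed values concern members that had not passed. With library sizes alone the log2 fold change was -0.0128 for Ddx52, -0.0908 for Ddx42, -0.0056 for Ddx46, -0.00042 for Dhx36, -0.0501 for Dhx30 and -0.0180 for Ddx3y. With the replicate block it was -0.0146 for Ddx42, 0.0031 for Ddx28 and -0.13 for Ddx3y. With RLE factors and DESeq2 it was 0.0109 and 0.0103 for Ddx28. Leaving out single libraries gave -0.0270 to 0.0280 for Ddx42, -0.0481 to 0.0243 for Ddx28 and -0.0885 to 0.201 for Ddx3y. The differences of the log2 count ratio ranged, with a library left out, from 0.79 to 0.90 for Ddx21/Ddx50, -0.0197 to 0.0202 for Ddx5/Ddx17, 0.08 to 0.38 for Ddx3x/Ddx3y, -0.0105 to 0.0771 for Ddx19a/Ddx19b and 0.40 to 0.54 for Ddx58/Dhx58. The cause of these changes was not tested. Depth limits Ddx60 most, with 40 to 147 reads a library.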

Other observations

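Ddx3y is 1 of 4 Y-linked genes measured here, which did not move together. Eif2s3y, a translation factor subunit, had 49.9, 49.6 and 51.2 CPM under control and 59.8, 54.4 and 56.7 CPM under stretch, a log2 fold change of 0.18 ± 0.05 (adjusted p = 0.0178). Without control replicate 2, control replicate 3 or stretch replicate 1 its call was lost (adjusted p = 0.0599, 0.0558 and 0.0564), as it was with library sizes alone (adjusted p = 0.172) and with the replicate block (adjusted p = 0.0991). Uty, a homologue of a histone demethylase, fell 1.26-fold, from 21.7 ± 2.61 CPM (control) to 17.3 ± 0.625 CPM (stretch) (adjusted p = 0.0170, and 0.0614 without stretch replicate 4), and Kdm5d, named after its values were seen, had a log2 fold change of -0.23 ± 0.07 (adjusted p = 0.0317). The inactive X transcript Xist had 0, 7 and 0 reads under control and 3, 4 and 0 reads under stretch, beside 3004 to 5718 reads of Ddx3y per library. Control replicate 3, the lowest library for Ddx3y, had 49.6 CPM of Eif2s3y against 49.9 and 51.2 CPM in the other control libraries, and 28.8 CPM of Kdm5d against 28.0 and 28.2 CPM.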
